A study of Homo sapiens with 3 samples.

Results

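The genes described here build ribosomes: a list of 42 genes for RNA polymerase I and its factors and for the nucleolar proteins that modify, cut and fold ribosomal RNA. They were measured on arrays of LNCaP cells, an established androgen-responsive line from a metastasis of a human prostate carcinoma. Cells carried siSE1 (1 array), siSE2 (1 array) or a negative control siRNA (1 array) for 72 hours. Both siSE siRNAs target SLC45A3-ELK4, a chimeric transcript of a prostate transporter gene and the gene of an ETS transcription factor, and no other agent beyond the transfection reagent is named for any array. The label of the siSE2 array that describes the transfection names siSE1, while its title, source and description name siSE2, and the title was followed. Membership was set by gene name: a probe set counted only if the platform annotation names 1 gene for it and that gene is on the list. A total of 38 of the 42 genes had such a probe set, of 18417 genes in all, and all 38 passed the filter on dim genes that left 12892 genes to test. NOP56, PPAN, DDX18 and GNL3 had none and were not analysed in the comparison.

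Ribosome production starts in the nucleolus, where RNA polymerase I transcribes the long precursor of most ribosomal RNAs. Small nucleolar ribonucleoproteins guide methylation (box C/D) and pseudouridylation (box H/ACA) of the precursor, while the small subunit processome and the pre-60S particles cut it and assemble it with ribosomal proteins. The pathway scales with growth, MYC is among its best known activators, and it is often raised in prostate cancer.

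The promoters of these genes were examined for 2 short motifs, because MYC binds the E-box CACGTG and ELK4 belongs to a family that binds the ETS core CCGGAAGT. RefSeq promoter windows (GRCh38.p14, from 250 bases before to 50 bases after the gene start) were available for 32 of the 38 measured genes. The E-box, which reads the same on both strands, stood in 12 of these 32 windows (37.5%), against 10.2% of the windows of 10244 tested genes and 7.26% of all 35116 windows. The ETS core, searched on both strands as CCGGAAGT or ACTTCCGG, stood in 6 of 32 (18.8%), against 8.22% of tested genes and 4.14% of all windows. No match of the one overlapped a match of the other. Among windows with an E-box, those of the 4 genes farthest from control on both siSE arrays are printed, with the E-box in capitals. They are WDR43 at chr2:28894417-28894716 (plus strand), NOP2 at chr12:6568242-6568541 (minus strand), RRP9 at chr3:51941855-51942154 (minus strand) and MRTO4 at chr1:19251555-19251854 (plus strand).
WDR43: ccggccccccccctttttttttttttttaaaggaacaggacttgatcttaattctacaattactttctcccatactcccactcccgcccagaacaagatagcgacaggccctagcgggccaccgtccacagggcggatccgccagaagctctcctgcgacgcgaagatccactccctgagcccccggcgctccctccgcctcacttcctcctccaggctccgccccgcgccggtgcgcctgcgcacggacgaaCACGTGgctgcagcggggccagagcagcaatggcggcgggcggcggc
NOP2: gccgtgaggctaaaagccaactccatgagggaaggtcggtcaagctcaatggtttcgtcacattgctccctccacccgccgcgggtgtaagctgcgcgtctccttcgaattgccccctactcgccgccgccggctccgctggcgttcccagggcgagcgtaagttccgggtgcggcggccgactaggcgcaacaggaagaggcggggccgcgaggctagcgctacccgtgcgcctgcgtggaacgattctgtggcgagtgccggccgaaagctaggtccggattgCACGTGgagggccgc
RRP9: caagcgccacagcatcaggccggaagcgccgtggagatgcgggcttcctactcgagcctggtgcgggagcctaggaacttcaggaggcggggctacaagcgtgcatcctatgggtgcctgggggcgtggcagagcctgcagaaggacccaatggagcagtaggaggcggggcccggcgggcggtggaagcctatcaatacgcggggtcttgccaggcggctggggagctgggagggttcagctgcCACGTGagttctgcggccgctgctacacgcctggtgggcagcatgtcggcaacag
MRTO4: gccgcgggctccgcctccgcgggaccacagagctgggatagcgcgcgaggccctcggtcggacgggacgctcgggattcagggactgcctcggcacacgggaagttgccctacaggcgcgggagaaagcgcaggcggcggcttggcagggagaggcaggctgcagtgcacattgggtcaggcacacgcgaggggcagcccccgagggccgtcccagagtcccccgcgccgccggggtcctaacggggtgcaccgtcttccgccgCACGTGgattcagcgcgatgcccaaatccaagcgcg
In these windows the E-box starts within 35 bases of the gene start. The 4 genes did not share a direction: WDR43, RRP9 and MRTO4 read higher on both siSE arrays than on the control array, and NOP2 read lower. Over the 12 genes with an E-box the median log2 difference, siSE mean minus control, was -0.0094, and 4 were higher and 5 lower on both siSE arrays. Over the 20 genes without one the median was -0.060, with 7 higher and 10 lower. The 6 genes with an ETS core (RRN3, DDX21, GAR1, POLR1C, NOP10 and UTP4) were 3 higher and 3 lower, with a median of -0.014. A match describes these letters in this window and does not show binding.

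**Figure D1:**
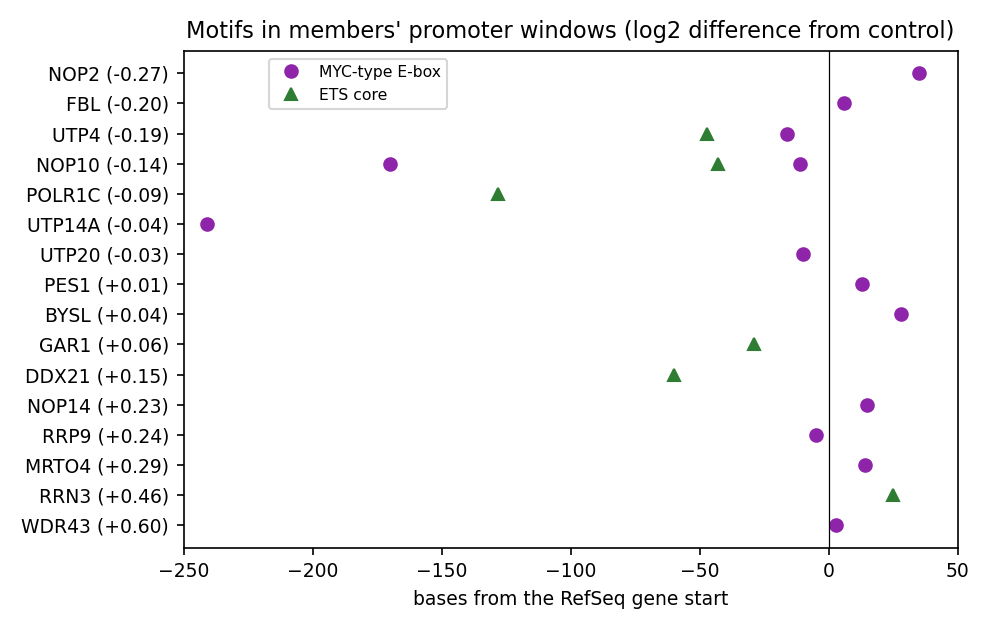
Position of the first base of each motif match (x axis, bases from the RefSeq gene start) in the promoter windows of the 16 measured genes that hold one; circles are E-boxes, triangles ETS cores, and the number beside each gene is its log2 difference, siSE mean minus control. Most E-boxes lie near the start, and the genes that hold them run from -0.27 (NOP2) to 0.60 (WDR43).

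None of the 38 genes passed the test, and as a group they stood close to control. The siSE arrays (n = 2) were compared with the control array (n = 1) by limma over all 12892 genes, with Benjamini-Hochberg adjustment and a threshold of 0.05. Of the 38 genes, 0 were called lower and 0 higher, with a lowest adjusted p of 0.0741; over all genes tested 0.714% were called lower and 0.248% higher (0.962% in all). At an unadjusted p under 0.05 in the same fit, 5 of the 38 (13.2%) stood apart, against 17.8% of all genes. Of the 38, 3 were lower and 2 higher, where 11.3% and 6.46% of all genes were. The median log2 difference was -0.045 over the 38 genes and -0.019 over all genes tested. With siSE1 the median was -0.067, against -0.023 over all genes, and with siSE2 -0.0035, against -0.013. On both siSE arrays 18 genes lay below control, 12 above and 8 on opposite sides. That is 47.4% below and 31.6% above, where 41.7% and 36.4% of all genes did so. Both siSE differences use the same control array, so they are not independent of each other.

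Most differences were small. The standard error was near 0.14 for every gene (0.141 to 0.158), which gives 95% intervals of about 0.32 either way, unadjusted. For 30 of the 38 genes this interval lay within 1.5-fold of control, and for all 38 within a log2 difference of 1. On simulated data the fit made more false calls than its nominal rate, so these intervals may be too narrow. Of the 38 genes, 33 differed by less than 0.3 (86.8%, against 76.9% of all genes). No gene was at least 1.5-fold lower, or higher, with both siRNAs, where 1.53% and 0.582% of all genes were. The smallest difference called for any gene was 0.74, above the largest among these 38, so the fit called nothing of their size. It has 1 residual degree of freedom per gene, from the difference between siSE1 and siSE2. It assumes that the lone control array varies as they do. Its standard errors are moderated, so each draws on the spread over all genes tested as well as the gene's own. NOP2 read 8.86 on both siSE arrays and FBL 10.16 and 10.41, yet their standard errors were 0.141 and 0.158. A value after ± is therefore not that gene's own measured spread. The labels do not name separate cultures, so p-values measure only the spread between these arrays, which may be technical.

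**Figure D2:**
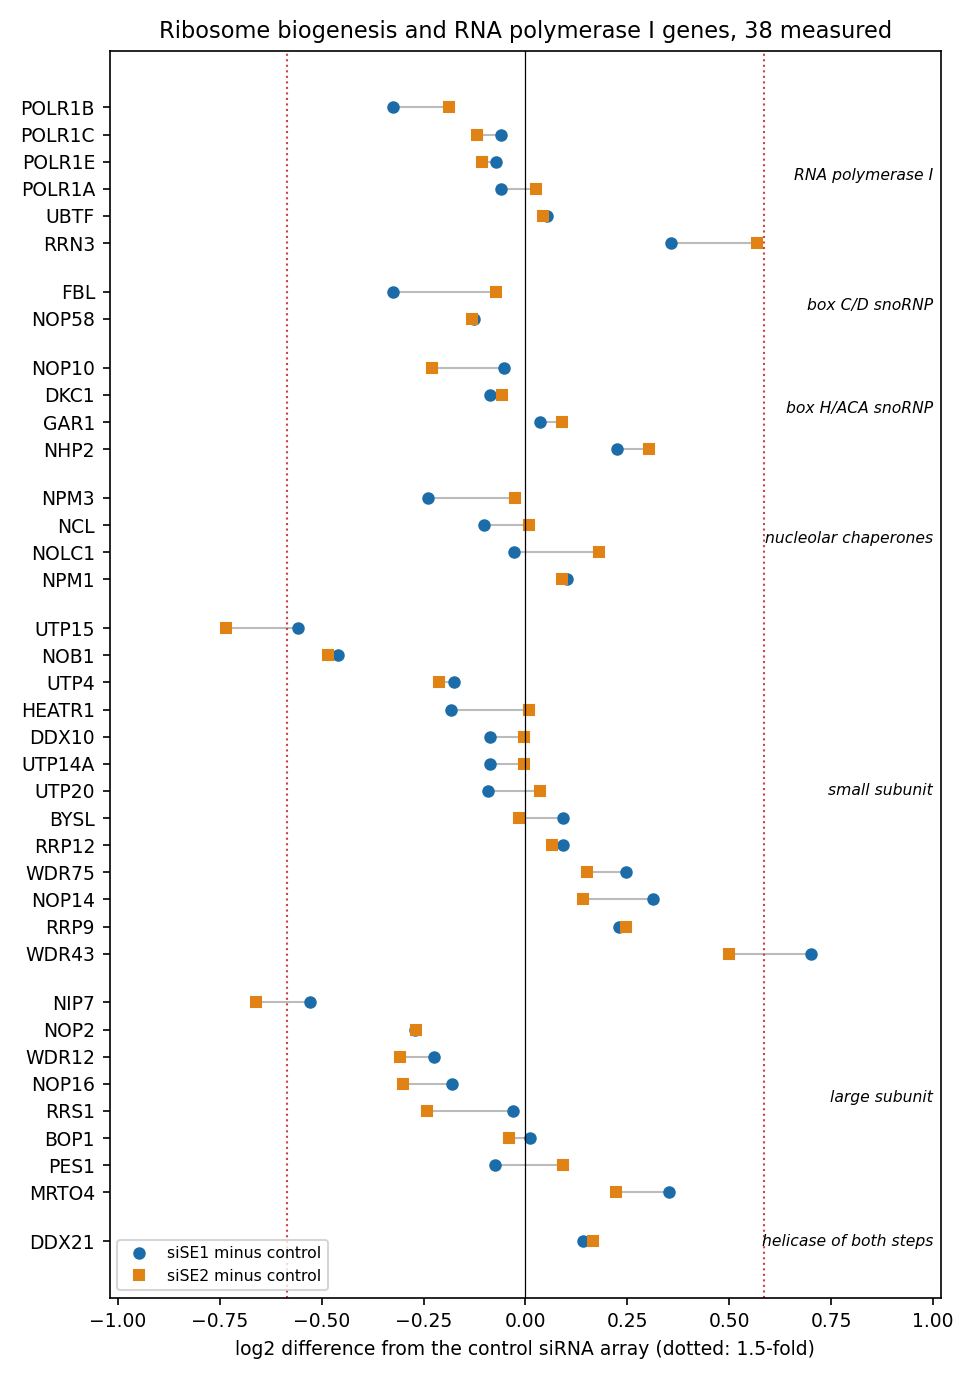
Log2 difference from the control array for each of the 38 measured genes, grouped by role; circles are siSE1 minus control, squares siSE2 minus control, and dotted lines mark 1.5-fold. No gene has both symbols past a dotted line; UTP15, NIP7 and NOB1 lie farthest to the left and WDR43 and RRN3 farthest to the right.

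Genes of RNA polymerase I itself stood near control except for its initiation factor. RRN3, which links the polymerase to the promoter-bound factors and carries growth signals to it, read 8.005 with siSE1 and 8.22 with siSE2, against 7.65 on the control array (log2). Both siSE arrays were above control, by 0.46 ± 0.15 (SE; limma, adjusted p = 0.168), with an unadjusted interval of 0.12 to 0.81. POLR1B, which encodes the second largest subunit, read 8.18 and 8.31, against 8.50 on the control array, a difference of -0.26 ± 0.15. POLR1A, the largest subunit, read 8.53 and 8.61, against 8.59, so the control lay between the siSE arrays. POLR1E, another subunit, read 8.55 and 8.52, against 8.63, and it and POLR1C, a subunit shared with RNA polymerase III, both differed by -0.090. UBTF, which holds ribosomal DNA in an open state and helps recruit the polymerase, read 8.44 and 8.43, against 8.38, a difference of 0.048 ± 0.14.

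Protein components of the modifying ribonucleoproteins moved little. Fibrillarin, the box C/D methyltransferase encoded by FBL, read 10.16 with siSE1 and 10.41 with siSE2, against 10.48 on the control array. Its difference was -0.20 ± 0.16, and its gap of 0.25 between siSE1 and siSE2 was the largest of the 38 genes. By comparison, 1.16% of all genes had siSE arrays at least 1.5-fold apart, and 0 of these 38 did. NOP58, another core box C/D protein, read 9.50 on both siSE arrays, against 9.63, a difference of -0.13 ± 0.14. Among the box H/ACA proteins, NHP2 read 8.31 and 8.39, against 8.09, and both of its probe sets were higher (0.27 and 0.25). The pseudouridine synthase gene DKC1 read 8.23 and 8.26, against 8.32. NOP10 read 10.75 and 10.57, against 10.80, while GAR1 differed by 0.063 ± 0.14.

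The abundant nucleolar chaperones gave no common direction. NPM1, which encodes nucleophosmin, differed by 0.096 ± 0.14. Of its 4 probe sets 3 were higher on both siSE arrays, by 0.11, 0.096 and 0.13. The other one was dim and read 4.60 and 4.50, against 4.50, which lowers the gene mean to 9.13 and 9.12, against 9.03. NPM1 has many processed copies in the genome, so its signal may include theirs. NPM3, a related chaperone, read 8.38 and 8.59, against 8.62. Nucleolin (NCL) differed by -0.046 and NOLC1, a phosphoprotein that assists small nucleolar ribonucleoproteins, by 0.076, and in both the siSE arrays lay on opposite sides of control.

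The small subunit group, with 13 genes the largest, held the lowest and the highest difference, both in the same complex. The proteins UTP4, UTP15, WDR43, WDR75 and HEATR1 form the part of the small subunit processome that binds the precursor first and is tied to its transcription. UTP15 read 7.38 with siSE1 and 7.20 with siSE2, against 7.94 on the control array. Both siSE arrays lay below control, and the difference of -0.65 ± 0.15 (SE; limma, adjusted p = 0.0741, interval -0.98 to -0.31) was the lowest of the 38. WDR43 read 9.51 and 9.31, against 8.81. Both siSE arrays lay above control, by 0.60 ± 0.15 (limma, adjusted p = 0.0929, interval 0.26 to 0.94), the highest of the 38. Of the other three, WDR75 differed by 0.20 ± 0.14, UTP4 by -0.19 ± 0.14 and HEATR1 by -0.086 ± 0.15. Neither UTP15 nor WDR43 passed, and whether their differences differ from each other was not tested.

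Among the other small subunit genes NOB1 differed most, without passing. NOB1, the endonuclease that makes the final cut of the small subunit RNA, read 8.29 and 8.27, against 8.75 on the control array. Its siSE arrays were close to each other and below control, by -0.47 ± 0.14 (SE; limma, adjusted p = 0.133, interval -0.79 to -0.16). RRP9, a protein of the U3 particle, read 7.96 and 7.98, against 7.73, a difference of 0.24 ± 0.14. NOP14, a processome protein, differed by 0.23 ± 0.15. The pre-40S factor genes RRP12 and BYSL differed by 0.079 and 0.038. UTP14A, the very large processome protein gene UTP20 and the helicase gene DDX10 lay between -0.046 and -0.028. DDX21, a helicase at both transcription and processing, read 9.39 and 9.42, against 9.25, a difference of 0.15 ± 0.14. Over the 13 small subunit genes 5 were lower on both siSE arrays and 5 higher, with a median of -0.028.

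No large subunit gene passed the test. Of 8 measured, 5 were lower on both siSE arrays (62.5%, against 41.7% of all genes), 1 was higher and 2 were mixed, and the median was -0.19. NIP7, a factor of pre-60S particles in yeast, read 9.01 and 8.88, against 9.54 on the control array. Both siSE arrays lay below control, by -0.60 ± 0.15 (SE; limma, adjusted p = 0.0869, interval -0.92 to -0.27). NOP2, a methyltransferase of the large subunit RNA, read 8.86 on both siSE arrays, against 9.13, a difference of -0.27 ± 0.14. WDR12 read 7.76 and 7.67, against 7.98, and NOP16 read 7.27 and 7.15, against 7.45. WDR12 works in a complex with BOP1 and PES1, which differed by only -0.015 and 0.0096, on opposite sides of control with siSE1 and siSE2. RRS1, which helps bring the 5S particle into the subunit, read 8.51 and 8.30, against 8.54. MRTO4, a relative of the stalk protein P0, went the other way, with 7.23 and 7.10, against 6.88 (0.29 ± 0.15).

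**Figure D3:**
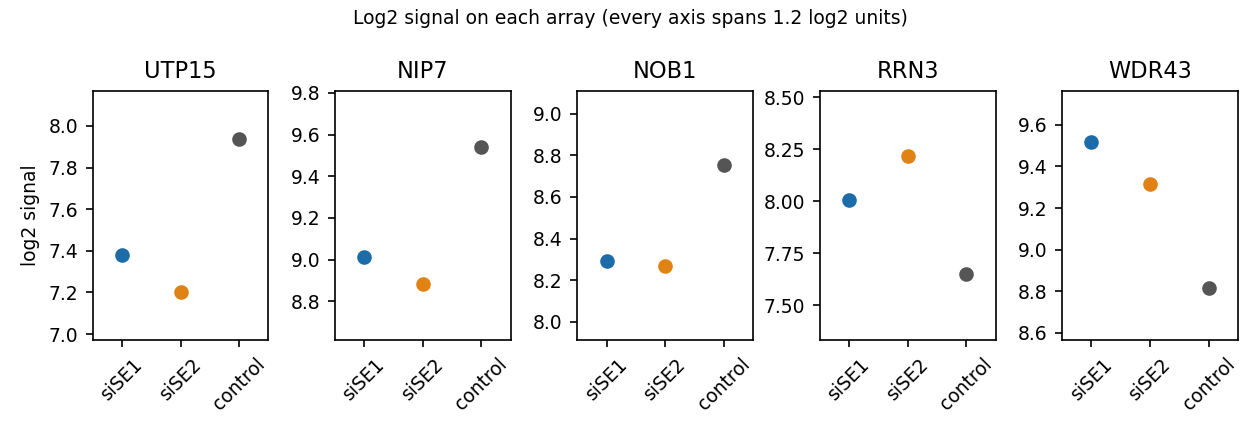
Log2 signal on the siSE1, siSE2 and control arrays for the 5 genes whose unadjusted 95% interval left out 0; 1 point is 1 array, and every axis spans the same range. UTP15, NIP7 and NOB1 read lower on both siSE arrays than on the control array, RRN3 and WDR43 higher.

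Other genes of the same pathways gave no call either, where 0.962% of all genes were called, and most of their differences were small. Of 16 further RNA polymerase I subunits and factors 0 passed in either direction, with 8 lower and 5 higher on both siSE arrays (median -0.054). POLR1F differed most among them, with 6.21 and 6.67, against 6.87 on the control array (-0.43 ± 0.19). Of 20 tested RNA polymerase III genes 0 passed, with 13 lower and 5 higher (median -0.087); POLR3C differed by -0.49 ± 0.15 and MAF1, a repressor of that polymerase, by -0.35 ± 0.14. Of 35 other small subunit factors 0 passed (13 lower, 11 higher, median -0.0092), and PWP2 and EMG1 differed by -0.45 ± 0.15 and -0.39 ± 0.14. Of 45 other large subunit factors 0 passed (19 lower, 16 higher, median -0.017), and GNL3L, a nucleolar GTPase gene, differed by -0.44 ± 0.17. Of 13 assembly factors of small nucleolar ribonucleoproteins 0 passed (6 lower, 2 higher, median -0.055), with SHQ1, a chaperone of dyskerin, at -0.48 ± 0.15. Of 15 exosome and nuclease genes 0 passed (8 lower, 2 higher, median -0.096), with EXOSC8 at -0.62 ± 0.17 and C1D at -0.51 ± 0.14. Of 58 ribosomal protein genes 0 passed (33 lower, 14 higher, median -0.071). Of all genes, 41.7% were lower and 36.4% higher on both siSE arrays. The share lower was above that of all genes in every list except the other small subunit factors (37.1%). It was largest for RNA polymerase III genes (13 of 20), followed by ribosomal protein genes (56.9%) and exosome and nuclease genes (53.3%). The share higher was below that of all genes in every list. At an unadjusted p under 0.05 (limma), where 11.3% of all genes were lower and 6.46% higher, no gene of these lists was higher. Lower at that level were 4 of 15 exosome and nuclease genes (26.7%), 4 of 20 RNA polymerase III genes (20.0%) and 2 of 13 assembly factors (15.4%). The other small subunit factors were near the share of all genes, with 4 of 35 (11.4%). The other lists were below it, with 1 of 16 RNA polymerase I genes, 2 of 45 large subunit factors and 2 of 58 ribosomal protein genes. No list was tested as a whole.

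No gene of the MYC network and no proliferation marker passed the test. MYC read 10.04 with siSE1 and 10.54 with siSE2, against 10.13 on the control array, so the siRNAs fell on opposite sides of control (0.15 ± 0.20; limma, adjusted p = 0.726). Of 13 network genes 9 were higher and 1 lower on both siSE arrays (69.2% and 7.69%, against 36.4% and 41.7% of all genes; median 0.15). MLX read 9.61 and 9.63, against 9.12, and MYCN, dim here, read 5.70 and 5.67, against 5.20. MNT read 7.38 and 7.34, against 7.14. The list holds MYC and its relatives together with genes that oppose MYC, MNT among them. Its counts therefore give no direction of MYC activity. Of 9 proliferation markers 8 were lower on both siSE arrays (88.9%) and 0 higher, with a median of -0.44. At an unadjusted p under 0.05 (limma), 2 of the 13 network genes were higher (15.4%, against 6.46% of all genes) and 7 of the 9 proliferation markers lower (77.8%, against 11.3%). Their mean log2 signal was 8.03 and 8.005, against 8.41 on the control array, while that of the 38 ribosome genes was 8.49 and 8.50, against 8.53. CDKN1A, which encodes the cell cycle inhibitor p21, rose by 1.37 ± 0.15 (limma, adjusted p = 0.0147; 0.0927 with no filter on dim genes, and 0.00577 to 0.0331 under the other normalizations, filter and probe set rule). The part of the markers' difference in the values of the ribosome genes was not tested.

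**Figure D4:**
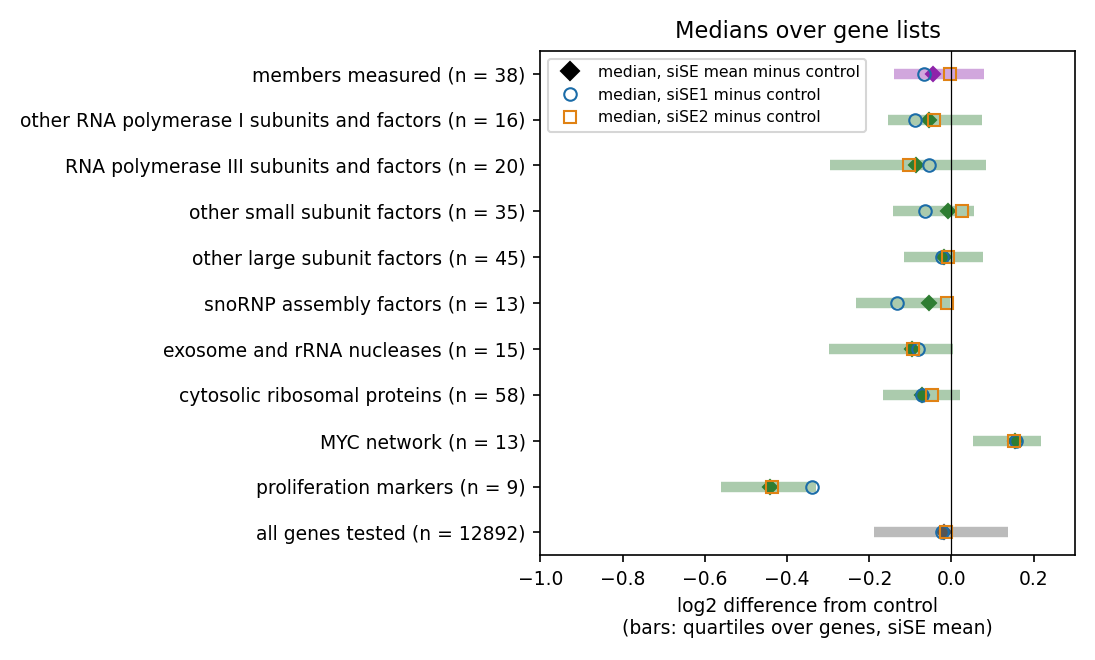
Median log2 difference from control over the tested genes of each list (diamonds, siSE mean; open circles, siSE1; open squares, siSE2), with bars from the lower to the upper quartile over genes. The ribosome genes (-0.045) and the related lists lie near all genes tested (-0.019), the MYC network at 0.15 and the proliferation markers at -0.44.

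Small nucleolar RNA genes lie inside some of these genes and gave few readings. RefSeq places 24 in 7 of the listed genes, of which 7 had a probe set of their own and 4 passed the filter on dim genes. SNORA51, within NOP56, differed most of these 4. It was above control by 0.17 with siSE1 and 0.37 with siSE2, 0.27 on average. SNORD57, also within NOP56, went the other way and read 10.94 and 11.13, against 11.14 on the control array. SNORA75, within NCL, differed by 0.046, with the siSE arrays on opposite sides of control. SNORD53, within WDR43, read 7.02 and 6.99, against 6.92, a difference of 0.081 where its host differed by 0.60. None of the 4 passed the test (limma, adjusted p from 0.378 to 0.913).

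RRN3 has pseudogenes, and 3 further probe sets name it together with RRN3P1 and RRN3P2, 1 of them also with RRN3P3. These read 9.12, 8.90 and 8.99 with siSE1 and 9.11, 8.96 and 8.96 with siSE2, against 8.41, 8.44 and 8.27 on the control array. All were above control on both siSE arrays, by 0.70, 0.49 and 0.71 on average, as was the probe set that names RRN3 alone (0.46). They cannot tell the gene from its copies, were not tested, and share the same 3 arrays.

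**Figure D5:**
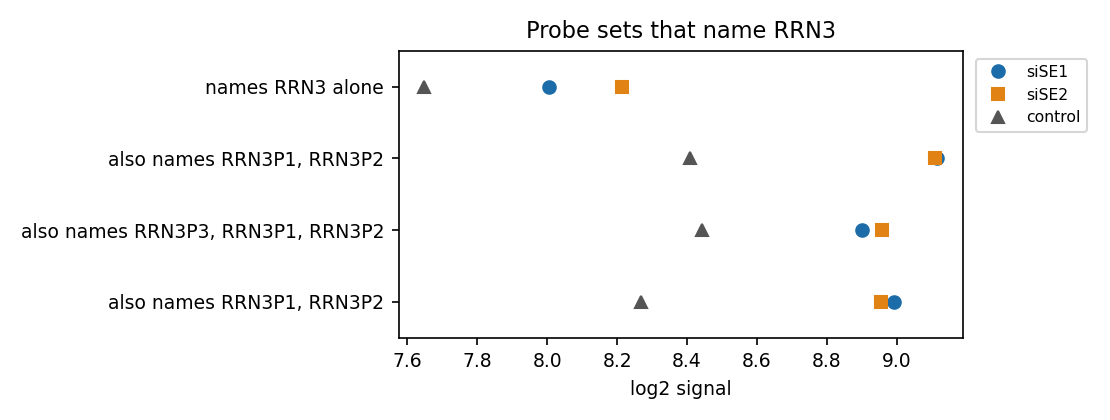
Log2 signal of the 4 probe sets that name RRN3, alone or with pseudogenes, on the siSE1 (circles), siSE2 (squares) and control (triangles) arrays. On every probe set both siSE arrays lie to the right of the control array.

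Markers of prostate and other cell types were also read. Levels of different probe sets cannot be compared, so these readings do not rank the cell types. Of 12 luminal prostate markers listed 8 were tested, with log2 signals between 6.39 and 11.8. On both siSE arrays 4 were higher and 4 lower (50% each, against 36.4% and 41.7% of all genes), with a median of -0.076. At an unadjusted p under 0.05 (limma) 3 of the 8 were higher (37.5%, against 6.46% of all genes) and 2 lower (25%, against 11.3%). None of the 8 passed the adjusted test. SLC45A3, which is on this list, was 1 of the 2 lower, with a difference of -0.46 ± 0.15. ACP3, which encodes prostatic acid phosphatase, differed by 0.76 ± 0.15 (limma, adjusted p = 0.0569; 0.0391 with quantile normalization, 0.0499 with cyclic loess and up to 0.154 with no filter) and the keratin gene KRT8 by 0.43 ± 0.14. Of 13 basal, fibroblast and blood cell markers 11 had a probe set and 5 passed the filter on dim genes, with no reading of the 11 above 6.99. All 5 were higher on both siSE arrays, where 36.4% of all genes were. The differences were 0.19 (KRT14), 0.15 (COL3A1), 0.13 (COL1A2), 0.043 (COL1A1) and 0.27 (CD14), and none passed, also at an unadjusted p under 0.05. CD14, COL3A1 and COL1A2 read 5.03, 5.43 and 5.52 on the control array, near the filter level of 5.12. The part of these markers in the values of the ribosome genes was not tested. The parent genes of the targeted chimeric transcript read 9.14 and 9.27, against 9.66 on the control array (SLC45A3), and 8.45 and 8.20, against 8.50 (ELK4). Neither passed. Their probe sets do not resolve the chimeric junction.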

How the data were processed

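Total RNA of LNCaP cells was labelled with a whole-transcript kit and hybridised to Affymetrix arrays, 1 per siRNA. The log2 values were deposited by the authors; per the submitters' processing notes they come from Affymetrix Expression Console. Its algorithm and version, the background correction and the build are not stated in them or in the other sources used. The scale was taken as log2 from the range, 1.43 to 13.9. Array medians were 5.84 (siSE1), 5.84 (siSE2) and 5.80 (control). Of 33297 probe sets 19460 named 1 gene in the platform annotation, 1754 several and 12083 none. Symbols were updated by gene identifier for 19429.

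Probe sets of a gene were averaged (18417 genes). A filter on the mean removed 5525 genes under the 30th percentile (log2 5.12). The siSE arrays were compared with the control by limma 3.58.1 in R 4.3.3 (lmFit, eBayes), with Benjamini-Hochberg adjustment over 12892 genes. The fit was run on simulated data, where it made more false calls than its nominal rate. Genes called by it, CDKN1A among them, may therefore include more false ones than the threshold states, and its intervals may be too narrow. The changed genes in that simulation had larger differences than any member, so it does not show how often differences of the members' size are found. It gave the control array the same spread as the siSE arrays, so it did not test that assumption. SE is its moderated standard error, which draws on the spread over all genes tested as well as the gene's own. Precision is limited by having 3 arrays.

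The members and lists were chosen with earlier results of these data known. The ETS motif was added to the planned E-box after the data were seen. Values by array are given for members chosen by rule: up to 3 per role with the largest smaller one of their differences, 1 in the other direction, and the 3 whose siSE arrays differed most. POLR1A, UBTF, RRP9 and NOP16 are given by array outside this rule, chosen after their values were seen. Other members are given in brief. Genes named from the lists, MYC aside, are among the first 3 of each by the same order. MAF1 is named although GTF3C4, ahead of it, is not. Alternatives were 3 normalizations, 2 filters, the highest probe set per gene, an intensity trend and leaving out each siSE array.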

Additional observations from a re-analysis of the deposited data

Results flagged for a closer look

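Probe sets that name several genes entered no comparison. On 2 of the 3 that name RRN3 with its pseudogenes, both siSE arrays were at least 1.5-fold above the control array. Their log2 differences of 0.70 and 0.71 drew attention because no test used them. Of all genes tested, 0.582% were that much higher with both siRNAs. That share covers probe sets naming 1 gene, and the share over those naming several is not given. No group held enough arrays to look for one that stands apart.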

How the results depend on the processing

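No member was called under any of the 7 other settings tested, with a lowest adjusted p among the members of 0.0692 (UTP15, highest probe set per gene) to 0.166 (UTP15, no filter) by limma. The count of all genes called did move, and the cause was not tested beyond what each setting changes. Genes called higher were 63 with quantile normalization, 21 with equal array medians, 52 with an intensity trend, 15 with a filter at the 50th percentile and 1 with no filter, against 32. Genes called lower were 20 with that filter and 0 with no filter (limma), against 92. With equal array medians, which shift all genes to a median of -0.059, 1 member (UTP15) was at least 1.5-fold lower with both siRNAs. With 1 siRNA at a time, 0 to 2 members were that much lower and 0 to 1 higher. The median of the members stayed within -0.085 and -0.0036 under the normalizations, filters and probe set rule. Members near 0 changed sign. With quantile normalization POLR1A was at 0.026, UTP14A at 0.0013, UTP20 at 0.016 and BOP1 at 0.033; with cyclic loess POLR1A was at 0.027, UTP20 at 0.015 and BOP1 at 0.029; with equal array medians BYSL was at -0.0019 and PES1 at -0.030. With the highest probe set, BOP1 was at 0.038 and SDAD1, a gene of the large subunit list, at 0.045. Leaving out an siSE array gave ranges of -0.059 to 0.027 for POLR1A, -0.028 to 0.18 for NOLC1, -0.10 to 0.0093 for NCL, -0.092 to 0.035 for UTP20, -0.18 to 0.0089 for HEATR1, -0.016 to 0.092 for BYSL, -0.041 to 0.012 for BOP1, -0.073 to 0.093 for PES1 and -0.093 to 0.40 for MYC, with no test. No paired analysis was possible because the groups share fewer than 2 replicate numbers. Arrays limit the precision by their number, 2 against 1.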

Other observations

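NOB1, NIP7 and UTP4, all lower on both siSE arrays, are close neighbours on chromosome 16 in RefSeq, which was noticed after their values were seen. Of the 6 other tested genes between the outer ones 4 were lower and 1 higher on both siSE arrays, where 41.7% and 36.4% of all genes were. Whether these 6 genes depart from those shares was not tested, and 6 are few. Their median log2 difference was -0.12, against -0.019 over all genes tested. They ranged from -0.36 (CYB5B) to 0.14 (NFAT5), and none of these passed the test (limma).

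A probe set that names DKC1 together with the small nucleolar RNA gene SNORA56 read 5.77 with siSE1 and 6.21 with siSE2, against 6.78 on the control array, while the DKC1 probe set alone differed by -0.073. The probe set shared by NOP56 and SNORD56 read 6.88 and 6.76, against 6.82, and the one shared by PPAN, P2RY11 and their read-through gene read 6.84 and 6.96, against 7.00. These were not tested.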
